A study of Mus musculus with 12 samples.

Results

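Apolipoproteins are the protein coats of the lipoprotein particles that carry triglyceride and cholesterol through the blood, and the liver makes most of those in plasma. The account below is about the 10 genes Apoa1, Apoa2, Apoa4, Apoa5, Apob, Apoc1, Apoc2, Apoc3, Apoe and Apom. They were taken by name out of 47729 genes in the count tables, with earlier results of these data known. All 10 had enough counts to be tested. Liver RNA was sequenced from 12 male C57BL/6 mice in 3 groups of 4, each mouse a separate animal. The healthy group (Naive_vehicle) received neither streptozotocin nor the high-fat diet and was given vehicle. The STAM-vehicle group (STAM_vehicle) had streptozotocin on day 2 of life, which damages the insulin-producing β-cells, a high-fat diet from week 4, and vehicle by mouth once a day from week 6 to week 9. The STAM-I-BET151 group (STAM_treated) had the same disease regimen and 10 mg/kg I-BET151, a small molecule that occupies the bromodomains of the BET family of chromatin proteins, over the same weeks. According to the methods of the study the drug was given in a different carrier from the vehicle groups, so drug and carrier cannot be told apart. Insulin loss and the high-fat diet go together in the STAM mice, and cannot be told apart either.

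In the liver, apolipoprotein B is the non-exchangeable scaffold of VLDL, one molecule to a particle, loaded with lipid in the endoplasmic reticulum by the transfer protein encoded by Mttp. Apolipoproteins A-I and A-II are the main structural proteins of HDL, and apolipoprotein M carries sphingosine-1-phosphate on it. The small C proteins and apolipoprotein E move between particles: C-II activates lipoprotein lipase, C-I and C-III restrain lipolysis and uptake, and E is the ligand by which the liver clears remnants. Apolipoprotein A-V promotes lipolysis of plasma triglyceride, and A-IV is made by intestine and, in mice, by liver. BET inhibitors are known for raising APOA1 in human hepatocytes, which makes Apoa1 a gene of interest beside this drug.

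The 10 genes lie in 5 places of the mouse genome (GRCm38, GENCODE M21). Apoa1 (chr9:46228580-46230466), Apoc3 (chr9:46232933-46235636), Apoa4 (chr9:46240696-46243459) and Apoa5 (chr9:46268633-46271919) stand next to each other, with Sik3 before and Zpr1 after them. Apoe (chr7:19696109-19699188), Apoc1 (chr7:19689481-19692660) and Apoc2 (chr7:19671579-19677941) form another cluster with Apoc4, between Clptm1 and Tomm40. Apoa2 (chr1:171225054-171226379), Apob (chr12:7977648-8016835) and Apom (chr17:35128997-35132050) stand apart from both clusters. The counts of Apoc2 need care, because 79.5% of its exon bases (646 of 813) are shared on the same strand with Gm44805, a gene that reads through Apoc4 and Apoc2. Of the Apoa4 exon bases, 34.8% are overlapped by the antisense gene Gm10680.

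The bases upstream of 4 of the genes are shown because the comparisons turn on them. By counts scaled between libraries, Apoa1 and Apoa2 were among the HDL genes lower in every STAM-vehicle mouse than in any healthy mouse. Apoa5 was the single gene called in the main fit of all mice (by edgeR, below), and Apoe is the neighbour gene whose mean differed little between the groups. The stretches are from RefSeq on GRCm38.p6, read 5′ to 3′ on the strand of the gene and ending before the annotated gene. Capitals mark TATAAA (the TATA box), AGGTCA and GGGTCA (half-sites of nuclear receptors) and CACGTG (the E-box of USF and related factors), searched on both strands.
Apoa1 (chr9:46228380-46228579, plus strand): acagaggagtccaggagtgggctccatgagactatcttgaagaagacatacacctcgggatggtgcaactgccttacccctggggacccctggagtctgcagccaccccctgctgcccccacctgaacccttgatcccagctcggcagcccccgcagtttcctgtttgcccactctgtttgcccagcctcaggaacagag
Apoa2 (chr1:171224804-171225053, plus strand): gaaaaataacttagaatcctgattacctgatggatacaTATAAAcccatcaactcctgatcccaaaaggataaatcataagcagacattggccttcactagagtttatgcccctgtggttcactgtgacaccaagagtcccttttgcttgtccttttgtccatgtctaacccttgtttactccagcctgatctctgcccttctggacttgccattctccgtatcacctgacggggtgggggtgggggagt
Apoa5 (chr9:46268358-46268607, plus strand): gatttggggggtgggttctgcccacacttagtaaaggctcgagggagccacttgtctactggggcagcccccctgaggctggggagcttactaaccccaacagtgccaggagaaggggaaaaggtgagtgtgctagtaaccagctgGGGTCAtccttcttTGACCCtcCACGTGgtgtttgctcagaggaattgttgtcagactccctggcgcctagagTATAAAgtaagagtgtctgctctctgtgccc
Apoe (chr7:19699189-19699438, minus strand): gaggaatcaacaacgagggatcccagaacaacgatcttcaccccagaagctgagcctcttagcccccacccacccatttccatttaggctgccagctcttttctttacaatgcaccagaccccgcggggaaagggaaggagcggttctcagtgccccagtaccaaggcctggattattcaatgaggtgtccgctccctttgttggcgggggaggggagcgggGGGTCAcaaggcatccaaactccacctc

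Positions are counted from the RefSeq start site, the base before it being -1. Upstream of Apoa5, TATAAA began at -31, GGGTCA was found at -104 and on the opposite strand at -90, and CACGTG lay at -82. The stretch of Apoe held GGGTCA at -28, and that of Apoa2 held TATAAA at -212. Apoa1 held none of the 4 motifs. Among all 32851 RefSeq start windows of mouse genes, 12.4% held TATAAA, 14.02% AGGTCA, 11.6% GGGTCA and 6.02% CACGTG in the 250 bases before the start, so that single matches are common. Windows were found for 8 of the 10 genes. Binding was not measured in these mice, and the matches are a description of the letters alone.

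The total count per mouse lay between 34711229 and 53365596. The livers expressed the hepatocyte markers Alb, Ttr and Trf in every mouse, and their defining albumin gene Alb had a mean of 81120 CPM (counts scaled to a common effective library size) in healthy and 41310 in STAM-vehicle mice. STAM-I-BET151 mouse 3 stood apart from the other 11 mice. Its summed hepatocyte markers (12 genes) came to 26556 CPM against at least 72854 in any other mouse, and its mitochondrial share was 2.71% against 4.51% or more. Its 7 RNAs listed as retained in the nucleus summed to 5153 CPM against at most 2325. Most of that sum was Neat1, at 3973. It had the lowest level of 9 of the 10 apolipoprotein genes and the highest of the other one, Apoc2. The study left out 1 I-BET151 sample without naming it, so all 4 mice were kept here, and the comparisons of the 10 genes are also given without mouse 3. A bulk liver sample cannot separate fewer hepatocytes from less RNA per hepatocyte.

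The 10 genes together took 3.64% ± 0.0962 of all counts in healthy livers (SD, n = 4), 3.57% ± 0.196 in STAM-vehicle livers and 3.29% ± 0.902 in STAM-I-BET151 livers. In mouse 3 the share was 2.03%. Relative to the hepatocyte markers of the same mouse, the 10 genes had 32.4 to 33.5 counts per 100 marker counts in healthy mice, 36.6 to 46.3 in STAM-vehicle mice and 29.7 to 47.6 in STAM-I-BET151 mice. The STAM-vehicle range lay above the healthy range, so this marker sum, most of it Alb, was lower by a larger factor than the sum of the apolipoprotein genes. In STAM-vehicle against healthy livers 0 of the 12 markers were called with all mice. Without mouse 3, 4 were called lower, where 10.3% of all genes were. By CPM, 7 of the 12 markers were lower in every STAM-vehicle mouse than in any healthy mouse, where 12.2% of all genes were. Of the 10 apolipoprotein genes 3 were. The part of hepatocyte content in the levels below was not tested.

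Compared per exon length, as RPKM (reads scaled by exon length and library size), the genes spanned from a mean of 14 for Apoc2 to 7049 for Apoa2 over the 12 mice. The value of Apoc2 divides its counts by all exon bases, those shared with Gm44805 included, so its place as lowest is uncertain. Apoa2 (7049), Apoe (6719) and Apoa1 (6441) led. Apoa2 exceeded Apoe in 6 of 12 mice and Apoe exceeded Apoa1 in 7 of 12, so the order of these 3 genes is not resolved. Apoc1 followed at 2325 RPKM, below Apoa1 and above Apoc3 in 12 of 12 mice. Apoc3 (827), Apoa4 (779), Apoa5 (516) and Apob (325) came next. Apoc3 was above Apoa4 in 9 of 12 mice, and the later neighbours kept their order in 11 of 12. Apom at 138 RPKM lay below Apob in 12 of 12 mice. With the longest transcript in place of all exon bases as the length, Apoe moved to the top with 10202 RPKM, above Apoa2 in 12 of 12 mice.

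**Figure D1:**
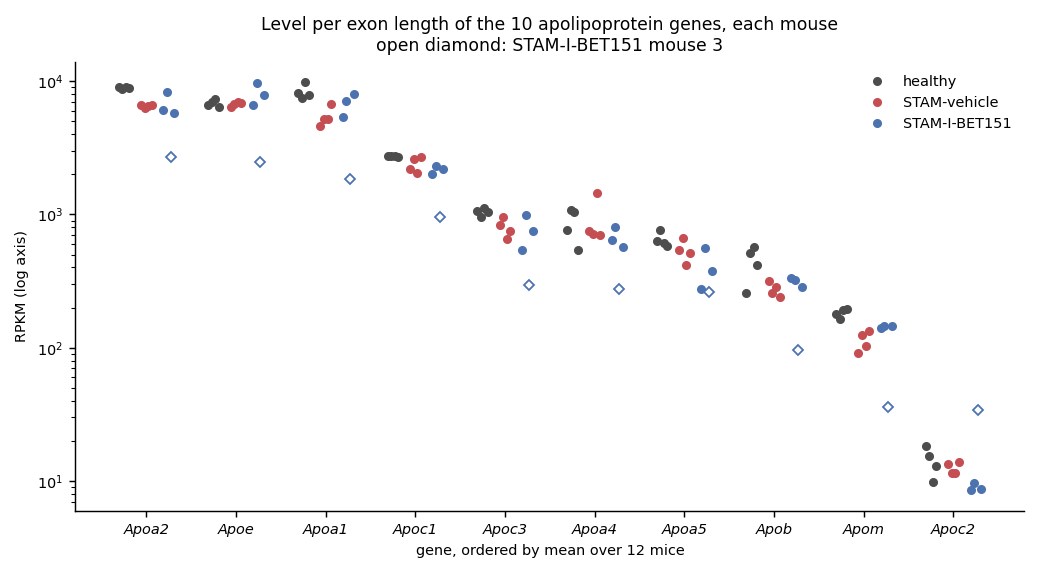
RPKM of the 10 apolipoprotein genes on a log axis, each point a mouse, genes ordered by their mean over 12 mice. Apoa2, Apoe and Apoa1 share the top and Apoc2 lies lowest at a mean of 14; the open diamond of STAM-I-BET151 mouse 3 lies below the other mice for 9 genes and above them for Apoc2.

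The first question was how the disease regimen alone moved these genes. By CPM, the HDL genes Apoa1, Apoa2 and Apom were lower in every STAM-vehicle mouse than in any healthy mouse. The mean of Apoe differed by less than the spread. With all 12 mice in the fit (edgeR's quasi-likelihood test, adjusted p of at most 0.05) 0 of the 10 genes passed, against 7.10% of all 16823 genes tested, 5.72% higher and 1.38% lower. At an unadjusted p under 0.05 the count was also 0, where all genes had 22.3%, and DESeq2 called 0. Without I-BET151 mouse 3, which belongs to neither group and enters through the shared estimate of spread, the scaling and the filter, 4 of the 10 were called lower, Apoa1, Apoa2, Apob and Apom. In that fit 22.3% of all genes were called, 10.3% lower. Fold changes hardly moved between both fits, and the intervals narrowed. Of the 10 genes 9 had a lower mean in STAM-vehicle livers, and their median difference was -0.33 on the log2 scale, where all genes tested had 0.01. The 12 hepatocyte markers had a median of -0.45, with 10 lower and 2 higher.

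Apoa1 encodes the main protein of HDL. Its level was 10133, 9208, 12120 and 9777 CPM in the healthy mice 1 to 4, and 5646, 6426, 6391 and 8292 in the STAM-vehicle mice. The groups did not overlap, as was so for 26.4% of all genes, 14.2% higher and 12.2% lower. Its log2 fold change was -0.62 (SE 0.38, 95% interval -1.44 to 0.19, adjusted p = 0.360), and -0.65 (SE 0.19, adjusted p = 0.0278) without I-BET151 mouse 3, or 0.639 of the healthy level.

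Apoa2, the other structural protein of HDL, was tightly grouped. The healthy mice had 4818, 4702, 4846 and 4770 CPM, and the STAM-vehicle mice 3555, 3386, 3506 and 3569. The gap between the groups exceeded the range within either. The fitted log2 fold change of -0.45 (SE 0.29, adjusted p = 0.396) became -0.47 (SE 0.14, adjusted p = 0.0343) without I-BET151 mouse 3.

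Apom, the sphingosine-1-phosphate carrier, had 183, 166, 196 and 197 CPM in healthy mice and 92.6, 126, 105 and 135 in STAM-vehicle mice. These ranges did not overlap. The log2 fold change was -0.70 (SE 0.32, 95% interval -1.39 to 0.00, adjusted p = 0.226). Without I-BET151 mouse 3 it was -0.72 (SE 0.12, adjusted p = 0.00194), or 0.609 of the healthy level, with the smallest adjusted p of the 10 genes.

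Apob, the scaffold of VLDL and LDL, varied more among healthy mice. It had 3595, 7154, 8001 and 5786 CPM in them and 4449, 3583, 3945 and 3370 in STAM-vehicle mice. Healthy mouse 1 lay within the STAM-vehicle range, and the other 3 healthy mice lay above it. Its difference on the log2 scale was -0.68 (SE 0.37, adjusted p = 0.306), and -0.70 (SE 0.22, adjusted p = 0.0392) without I-BET151 mouse 3.

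Apoe, the remnant ligand, had 14033, 14779, 15790 and 13752 CPM in healthy mice and 13673, 14309, 14835 and 14632 in STAM-vehicle mice. The groups overlapped, with a log2 fold change of -0.02 and a 95% interval from -0.81 to 0.77, or from -0.42 to 0.33 without I-BET151 mouse 3. Changes of Apoe inside that interval could not be seen with these mice. Macrophages also express Apoe, and their markers moved with the disease: 6 of 13 were called higher (background 5.72%) and their sum ranged from 474 to 919 CPM in STAM-vehicle mice against 300 to 427 in healthy mice. All 13 markers were tested, and the macrophage part of the Apoe level was not tested.

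The remaining genes did not pass in either fit. The C genes had log2 fold changes of -0.38 for Apoc3 (95% interval -1.005 to 0.24), -0.19 for Apoc1 (-0.75 to 0.36) and -0.17 for Apoc2 (-1.004 to 0.66), all with overlapping groups. Apoa5 stood at -0.27 (-0.83 to 0.28). Apoa4 was the 1 gene with a higher mean in STAM-vehicle livers, at 0.08 (-0.67 to 0.83). That mean rested on STAM-vehicle mouse 3 with 2638 CPM, against 1276 to 1365 in the other 3, and without that mouse the log2 fold change was -0.25. The part of the overlapping antisense gene Gm10680 in the Apoa4 counts was not tested.

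**Figure D2:**
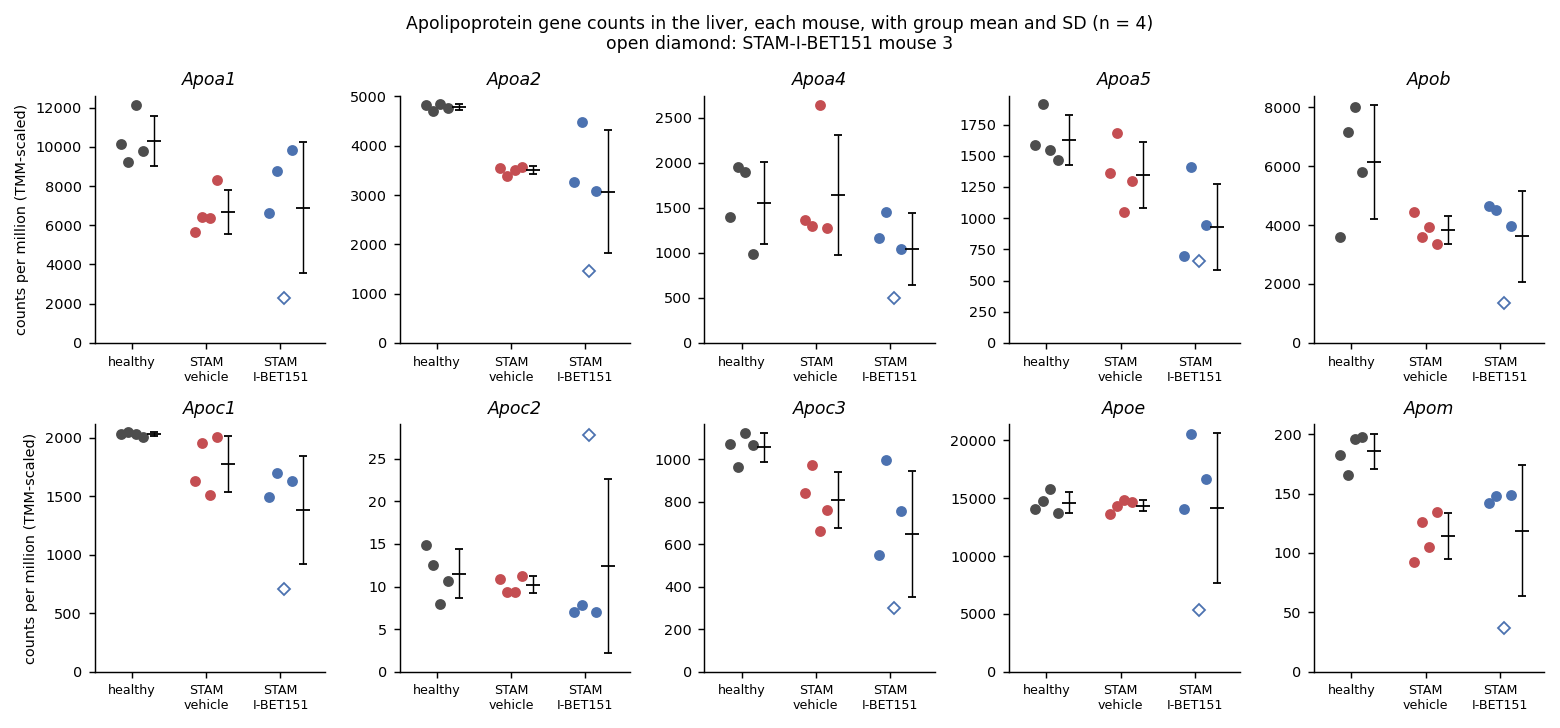
CPM of each of the 10 genes in each mouse (points), with the group mean and SD over 4 mice; every axis starts at 0. Apoa1, Apoa2 and Apom are lower in each of the 4 STAM-vehicle mice than in each healthy mouse, and STAM-I-BET151 mouse 3 (open diamond) is lowest for 9 genes.

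CPM values depend on how libraries are scaled, and scaling by library totals alone moved the median log2 fold change of all genes to 0.28. On that scale Apoa1, Apoa2, Apob and Apom still had lower means in disease, while the signs of Apoe, Apoc1 and Apoc2 turned. As a share of all counts the groups overlapped for Apoa1 and Apoa2, so their separation depends on the scaling. STAM-vehicle mouse 4 had 0.833% for Apoa1 against 0.798% in healthy mouse 2. For Apoa2, STAM-vehicle mouse 3 had 0.388% against 0.373% in healthy mouse 3. Apom stayed separate, with at most 0.0135% in STAM-vehicle mice and at least 0.0144% in healthy mice. The ratio of a gene to Apoe within the same library needs no scaling factor, and was taken as a description after the values above were seen. It rests on the level of Apoe, whose share of all counts was 1.21% to 1.33% in healthy and 1.41% to 1.64% in STAM-vehicle mice. A higher Apoe level lowers every such ratio, so the ratio is no independent check of the scaling. How many genes were separate as shares of all counts was not counted. Apoa1 had 62.3 to 76.8 counts per 100 Apoe counts in healthy mice, 41.3 to 56.7 in STAM-vehicle mice and 42.7 to 59.0 in STAM-I-BET151 mice. All 8 STAM mice, mouse 3 included, lay below the 4 healthy mice. The same held for Apoa2, with 30.7 to 34.7 in healthy mice, 23.6 to 26.004 in STAM-vehicle mice and 18.5 to 27.4 in STAM-I-BET151 mice. It held for Apom too, with 1.12 to 1.44, 0.677 to 0.921 and 0.688 to 1.01. Over all other genes tested, 9.49% were lower and 14.2% higher without overlap in STAM-vehicle against healthy mice by this ratio, and 1.53% lower and 5.02% higher in STAM-I-BET151 against healthy mice. Between the drug and vehicle arms 0 of 9 genes were separate by this ratio, against 0.244% lower and 0.571% higher over all genes. By contrast, the Apoa5 ratio of mouse 3 (12.4) lay within the healthy range of 9.81 to 13.0.

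**Figure D3:**
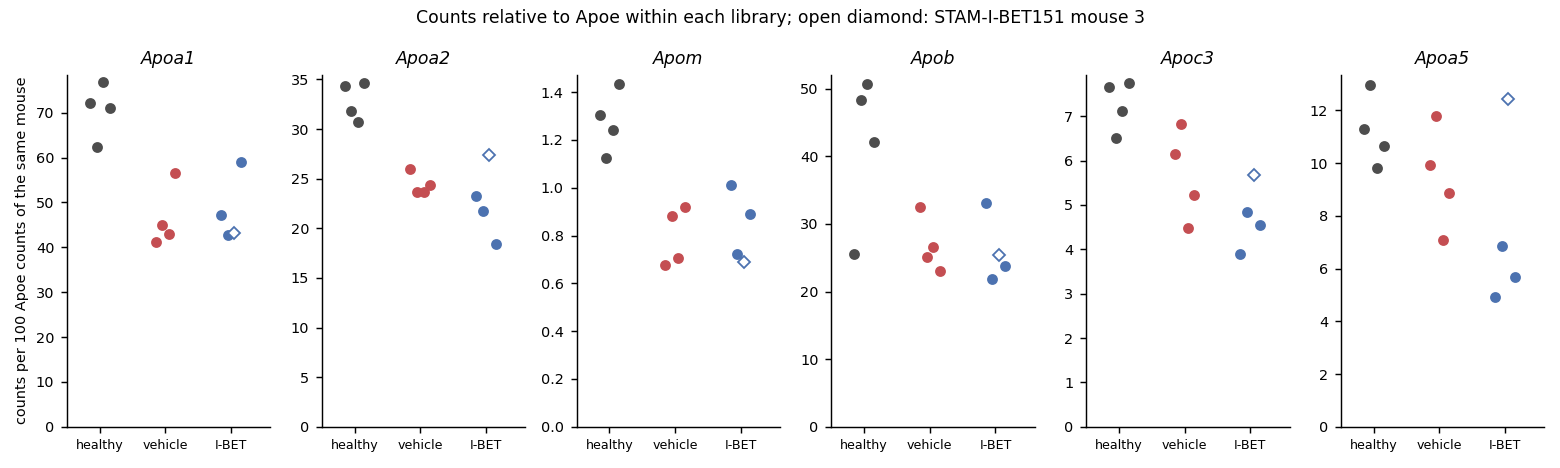
Counts of 6 genes per 100 Apoe counts of the same mouse, each point a mouse, axes from 0. For Apoa1, Apoa2 and Apom all 8 STAM mice lie below the 4 healthy mice; for Apob healthy mouse 1 lies among the STAM mice, and for Apoa5 STAM-I-BET151 mouse 3 lies among the healthy mice.

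Sequencing lanes, read from the names of the deposited tables, were shared by few mice of different groups. Lane 2 was the one lane with a healthy and a STAM-vehicle mouse, and there 9 of the 10 genes were lower in the STAM-vehicle mouse, all but Apoe. The 9 ranged from 71.1% (Apoc3) to 98.7% (Apoc1) of the healthy mouse. This pair is a single mouse against another, and the share over all genes was not counted. With the lane as a covariate the fitted log2 fold changes of Apoa1 and Apob turned to 0.07 and 0.18, those of Apoa2 and Apom stayed below 0, and 0 of the 10 genes were called, against 0.220% of all genes. The lane and the disease group can thus be separated only weakly.

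The second question was whether I-BET151 moved the same genes in diseased liver. The answer in these mice was that none of the 10 was called. Of the 19 other tested apolipoproteins and HDL proteins, 2 were called lower, Apol9a and Apol9b of the interferon-responsive apolipoprotein L family. In the fit of all 12 mice 0 of 10 passed an adjusted p of at most 0.1, against 0.351% of all genes. At an unadjusted p under 0.05 the count was 0, where all genes had 8.68%, and DESeq2 also called 0. In 10 of 10 genes the groups overlapped, while 5.04% of all genes were separate, 2.41% higher and 2.63% lower. Of 6 genes known to respond to BET inhibitors 1 was called, the histone gene Hist1h4h, which was higher in the STAM-I-BET151 livers at a log2 fold change of 3.42 (SE 0.36, adjusted p = 0.00409). The other 5 were Hexim1 at -0.31, Hist2h2be at -0.51, Ccr2 at -0.0706, Serpini1 at 0.22 and Myc at 0.33, and without mouse 3 Hist1h4h alone was called again. By sign alone 3 of the 6 were higher and 3 lower. The study had already named Hist1h4h among the genes most increased after I-BET151, so this list is no independent check of the drug's action. Without mouse 3 edgeR again called 0 of 10, against 2.38% of all genes, 0.914% higher and 1.46% lower.

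Mouse 3 decided the direction of several of these differences. The other STAM-I-BET151 mice, 1, 2 and 4, had 6619, 8777 and 9841 CPM of Apoa1, and mouse 3 had 2296. The log2 fold change of Apoa1 against STAM-vehicle was 0.04 (95% interval -0.77 to 0.85) with mouse 3 and 0.34 (-0.10 to 0.77) without it. The interval without mouse 3 reaches from a small decrease to a rise of 0.77 on the log2 scale. An increase of Apoa1 of the size of the disease difference was therefore inside it.

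Apom came nearest to a call in the direction opposite to the disease. Mice 1, 2 and 4 had 142, 148 and 149 CPM, above the 92.6 to 135 of STAM-vehicle mice, and mouse 3 had 36.5. With mouse 3 the log2 fold change was 0.05 (-0.64 to 0.75). Without it the value was 0.36 (0.09 to 0.63, adjusted p = 0.173), and DESeq2 without mouse 3 gave an adjusted p of 0.0939, below the threshold. That DESeq2 fit called 8.32% of all genes. How many genes were separate between these arms once mouse 3 was left out was not counted. The STAM-I-BET151 mice other than mouse 3 still lay below all healthy mice.

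Apoe in mice 1, 2 and 4 was at 14044, 20549 and 16684 CPM, and in mouse 3 at 5301. Its log2 fold change of -0.02 with mouse 3 became 0.26 (-0.14 to 0.66) without it. Apob (-0.08 and 0.20) and Apoa2 (-0.19 and 0.05) changed sign in the same way. Apoa4 and Apoa5 kept theirs, at -0.66 and -0.54 with mouse 3 and -0.42 and -0.40 without it, with 95% intervals that held 0 in both fits. The values of Apoc3 were -0.32 and -0.07, and those of Apoc1 -0.36 and -0.13.

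Apoc2, the activator of lipoprotein lipase, behaved unlike the others in mouse 3. It had 386, 260, 1548 and 307 counts in the STAM-I-BET151 mice, or 6.95, 7.83, 27.8 and 7.05 CPM, and 9.34 to 11.2 in STAM-vehicle mice. Mice 1, 2 and 4 lay below all STAM-vehicle mice and mouse 3 above all mice. The log2 fold change was 0.28 with mouse 3 and -0.48 (95% interval -0.86 to -0.11, adjusted p = 0.183) without it. Few reads were counted for this gene, and most of its exon bases are shared with the read-through gene. How reads on the shared bases were assigned is not stated in the sources used here, so its level is uncertain. Its neighbour Apoc4 had 11750 to 18898 counts and a log2 fold change of -0.12 (SE 0.15).

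In lane pairs of STAM-I-BET151 and STAM-vehicle mice, Apoa1, Apob, Apoe and Apom were higher and the other 6 genes lower with the drug on lanes 2 and 6. On lane 7, which held mouse 3, all but Apoc2 were lower. Each pair is a single mouse against another, and the share over all genes was not counted. Apoc3 on lane 2 hardly differed, at 99.2% of the STAM-vehicle mouse.

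**Figure D4:**
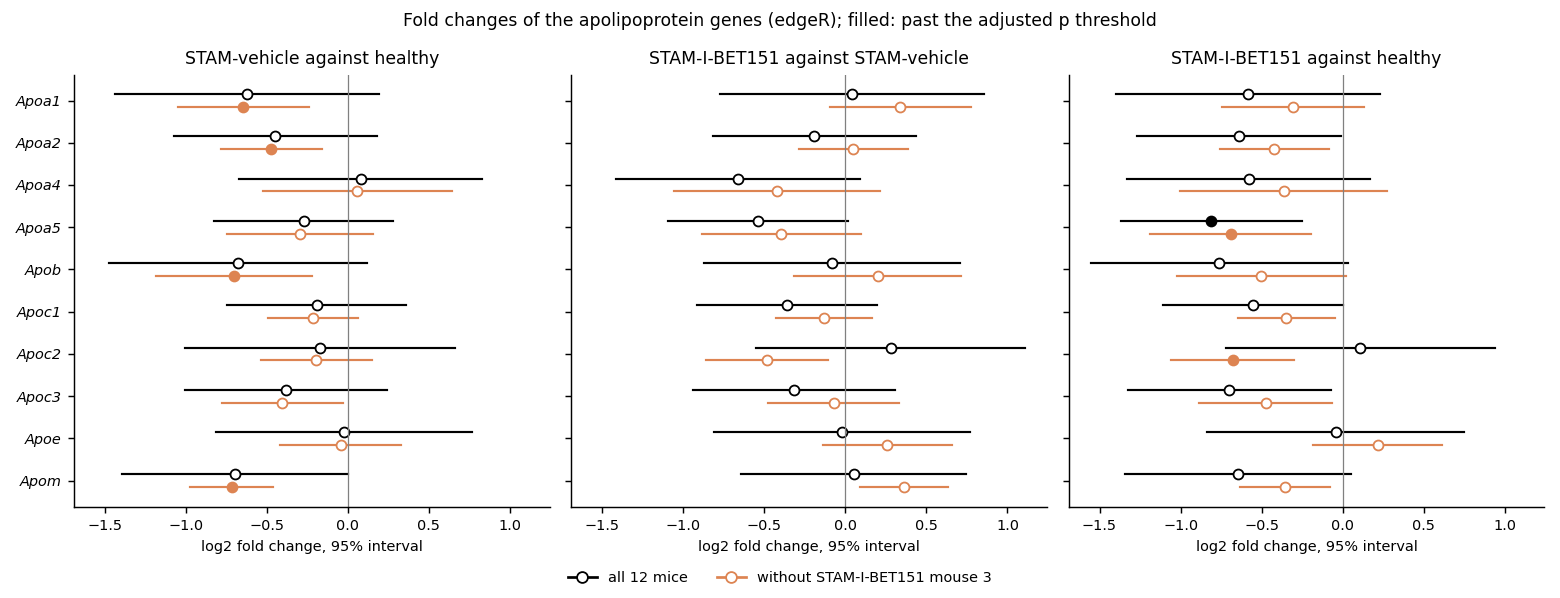
Log2 fold changes of the 10 genes with 95% intervals in the 3 comparisons, from all 12 mice (black) and without STAM-I-BET151 mouse 3 (orange); filled points pass the adjusted p threshold. Against healthy, Apoa1, Apoa2, Apob and Apom are filled for STAM-vehicle in the fit without mouse 3, Apoa5 is filled for STAM-I-BET151 in both fits and Apoc2 in the fit without mouse 3, and no point is filled for the drug against STAM-vehicle.

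The third comparison set the drug-treated diseased livers against the healthy ones. It shares its mice with the comparisons above and is no independent evidence. Apoa5, which promotes lipolysis of triglyceride, was the 1 gene of the 10 called, against 15.1% of all genes, 9.88% higher and 5.25% lower. It had 1582, 1915, 1549 and 1463 CPM in healthy mice and 693, 1411, 659 and 948 in STAM-I-BET151 mice. The groups did not overlap, as was so for 19.8% of all genes, 10.9% higher and 8.85% lower. Its log2 fold change was -0.81 (SE 0.26, 95% interval -1.37 to -0.25, adjusted p = 0.0499), and the adjusted p lay close to the threshold. At an unadjusted p under 0.05 there were 3 of the 10 genes, where all genes had 32.6%. Leaving out each of the 12 mice in turn kept the sign, with log2 fold changes from -1.09 to -0.69 and adjusted p from 0.00804 to 0.142. In 10 of these 12 fits the call was lost, and it was kept without I-BET151 mouse 2 and without mouse 3.

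The difference of Apoa5 between the drug and vehicle arms of the STAM mice was itself not called (-0.54, 95% interval -1.09 to 0.02, adjusted p = 0.590). Over the 12 mice the genes most like Apoa5 in log2 CPM were Aurka (Pearson r = 0.951) and Fxyd1 (r = 0.937), out of all genes tested. Libraries are shared by every point of such an r.

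Apoa2, Apoc1 and Apom were also lower in every STAM-I-BET151 mouse than in any healthy mouse without being called, at -0.64, -0.55 and -0.64. Without mouse 3 the called genes were Apoa5 (-0.69, adjusted p = 0.0491) and Apoc2 (-0.68, adjusted p = 0.0174), against 20.4% of all genes, 9.53% lower. In the fit without I-BET151 mouse 2, Apoa2, Apoa5 and Apoc3 were called, against 21.7% of all genes. Apoe was at -0.04 with all mice and 0.22 without mouse 3.

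The partners of these proteins were looked at by role, in lists set by function and tested in the same edgeR fit. Of 24 genes of VLDL assembly and secretion, 1 was called higher and 1 lower in STAM-vehicle against healthy livers. Over all genes 5.72% were higher and 1.38% lower. Apobec1, the enzyme that edits the Apob transcript so that the short B48 form is made, rose (log2 fold change 0.68, SE 0.16, adjusted p = 0.0214). Ces1f, a carboxylesterase, fell (-1.06, SE 0.29, adjusted p = 0.0443). Mttp, which loads lipid onto apolipoprotein B, was at -0.49 (adjusted p = 0.224) and below every healthy mouse in every STAM-vehicle mouse. The median of the list was -0.18, against 0.01 over all genes.

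Without mouse 3 the same list had 7 genes called lower, where 10.3% of all genes were, among them Mttp (-0.51, SE 0.13, adjusted p = 0.0147), and Apobec1 higher. In STAM-I-BET151 against healthy livers 6 of 24 were called lower and 1, Apobec1, higher, where 5.25% of all genes were lower and 9.88% higher. Mttp fell there by 0.89 on the log2 scale (adjusted p = 0.0205), Aadac by 0.96 (adjusted p = 0.0147), Cideb, which helps VLDL take up lipid, by 0.72 (adjusted p = 0.0186) and Ces1f by 1.06 (adjusted p = 0.0273). For the drug against STAM-vehicle 0 of 24 passed in either fit, with Mttp at -0.40 (adjusted p = 0.670) and -0.19 without mouse 3.

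On the side of lipolysis, 12 genes were tested. Lpl, the lipase that apolipoprotein C-II activates, rose in STAM-vehicle livers (1.42, SE 0.39, adjusted p = 0.0444), and hepatic lipase, Lipc, fell (-0.73, SE 0.19, adjusted p = 0.0347). Over all genes 5.72% were higher and 1.38% lower. Without mouse 3 there were 1 higher and 2 lower of the 12, where 12% of all genes were higher and 10.3% lower. None of the 12 was called for the drug with all mice. Without mouse 3 the endothelial lipase gene Lipg was lower with the drug (-1.64, SE 0.41, adjusted p = 0.0879), where 1.46% of all genes were.

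Of 15 tested receptor and uptake genes, Cd36, a fatty acid and lipoprotein scavenger receptor (1.78, SE 0.31, adjusted p = 0.00413), and Apobr, a receptor for apolipoprotein B48 (0.96, SE 0.22, adjusted p = 0.0193), rose in STAM-vehicle livers and 0 fell. Over all genes 5.72% were higher and 1.38% lower. Without mouse 3 there were 3 higher and 1 lower of the 15, where 12% of all genes were higher and 10.3% lower. Scarb1, the HDL receptor, was at -0.28 (adjusted p = 0.393) in disease and 0.13 (adjusted p = 0.910) with the drug. Of the 8 tested genes of HDL formation and sterol efflux 0 were called in disease or with the drug with all mice. Without mouse 3 the sterol transporter genes Abcg1 (0.66, adjusted p = 0.0349) and Abcg8 (-0.34, adjusted p = 0.0469) were called in disease and 0 with the drug. With all mice Abca1, the transporter that loads cholesterol onto apolipoprotein A-I, was at -0.08 and 0.10.

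Among 19 other tested apolipoproteins and HDL proteins, 4 were called higher in STAM-vehicle livers and 0 lower with all mice, although 7 were lower without overlap of the groups. Over all genes 5.72% were called higher and 1.38% lower, and 12.2% were lower without overlap. Without mouse 3 there were 7 called higher and 6 lower, where 12% of all genes were higher and 10.3% lower. Among the lower ones were Pon1 (-0.68, adjusted p = 0.00416), Apon (-0.66, adjusted p = 0.00512), Apof (-0.44, adjusted p = 0.0151) and Apoh (-0.43, adjusted p = 0.0452). Apol9a, a member of the apolipoprotein L family that responds to interferon, had 26.3, 33.1, 22.7 and 27.03 CPM in healthy mice, 99.9, 110.5, 105 and 114 in STAM-vehicle mice and 44.8, 44.4, 55.0 and 34.1 in STAM-I-BET151 mice. The 3 groups were separate from each other, mouse 3 included. The log2 fold change was 1.98 (SE 0.16, adjusted p = 1.83e-05) for disease and -1.27 (SE 0.15, adjusted p = 0.00947) for the drug. Its relative Apol9b moved alike, at 1.203 (adjusted p = 0.0013) and -1.22 (adjusted p = 0.0186). These 2 genes are close copies, and reads could be split between them. With all mice both were the called genes of this list for the drug, and without mouse 3 Saa2 was called higher beside them.

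Saa1 and Saa2, acute-phase proteins that bind HDL, were higher in STAM-I-BET151 than in healthy livers, with log2 fold changes of 5.35 (SE 1.24, adjusted p = 0.0128) and 6.44 (SE 1.38, adjusted p = 0.00883). Their groups overlapped. Pon1, an HDL-bound esterase, was lower (-1.25, SE 0.20, adjusted p = 0.00161).

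**Figure D5:**
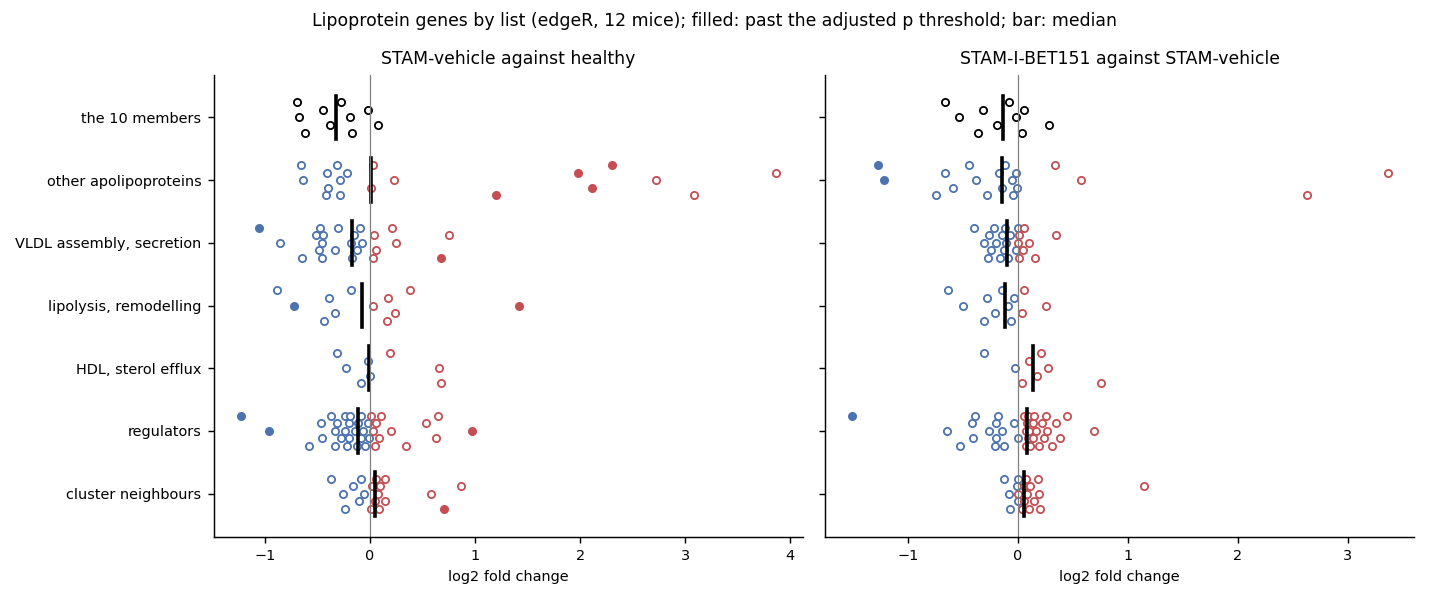
Log2 fold changes of the 10 genes and of 6 lists of their partners, 1 point a gene, for disease (left) and drug (right) from the fit of 12 mice; filled points pass the adjusted p threshold and bars are medians. Apol9a and Apol9b are the filled points of the other apolipoproteins for the drug, while none of the 10 genes is filled in either panel.

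Of 37 transcription regulators, 1 rose and 2 fell in STAM-vehicle livers, where 5.72% of all genes were higher and 1.38% lower. The regulators called were Pparg (0.97, adjusted p = 0.0368), Nr0b2, a repressor downstream of the bile acid receptor (-1.23, adjusted p = 0.0328), and the clock repressor Nr1d1 (-0.97, adjusted p = 0.0104). Hnf4a, a main activator of apolipoprotein genes in hepatocytes, was at -0.02 (SE 0.26), Creb3l3 at -0.22 (SE 0.15) and Ppara at -0.58 (SE 0.17, adjusted p = 0.0586). With the drug 1 of the 37 was called, against 0.351% of all genes. It was the coactivator gene Ppargc1a, at -1.51 (SE 0.27, adjusted p = 0.0485). Without mouse 3 there were 3 regulators higher and 6 lower in disease, where 12% of all genes were higher and 10.3% lower. With the drug Ppargc1a alone was called again, where 2.38% of all genes were called. Of the 19 tested neighbours of both clusters and of Apom, 0 were called with the drug in either fit and 1 in disease with all mice, Bcam (0.70, SE 0.18, adjusted p = 0.0323), next to Nectin2 on the Apoe side. The genes flanking Apoa1 and Apoa5, Sik3 and Zpr1, were not called in disease. Without mouse 3 there were 3 neighbours higher and 2 lower in disease, against the 12% and 10.3% of all genes. Clptm1, beside Apoc2, was among the lower ones at -0.39 (adjusted p = 0.00903).

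Markers of tissues that could add apolipoprotein RNA to a liver sample were low. Of 8 enterocyte markers 3 were tested and 0 were called for disease or drug, and their sum was at most 90.0 CPM in any mouse. Of 6 adipocyte markers only Cfd was tested, which rose in STAM-vehicle livers (5.52, SE 0.81, adjusted p = 0.00155), and the adipocyte sum stayed at or below 8.44. None of the 7 exocrine pancreas markers had enough counts, with a sum of at most 0.240. The part of such cells in the apolipoprotein levels was not tested.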

How the data were processed

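Liver poly(A) RNA of 12 mice was sequenced as stranded paired-end libraries. The deposited tables hold whole-number read counts per Ensembl gene, made by the authors from STAR 2.5.1b alignments to mm10. HTSeq is named in the submitters' processing notes, and the annotation release is not given in the sources used here. Of 47729 gene IDs, 47224 (98.9%) matched GENCODE M21. Totals were 34711229 to 53365596 counts per mouse, and low counts such as those of Apoc2 limit precision.

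The test was that of edgeR 4.0.16, under R 4.3.3 (TMM scaling, filterByExpr with a minimum count of 10, 1 quasi-likelihood fit of all 12 mice, Benjamini-Hochberg adjustment over 16823 genes). Thresholds were an adjusted p of 0.05, or 0.1 for the drug against STAM-vehicle. Standard errors and 95% intervals came from the same fit. CPM values use TMM-scaled totals. The scripts were tested on simulated data. The design differs from the study's own, which used DESeq2 and left out 1 I-BET151 sample that its sources do not name.

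The 10 genes and the gene lists were chosen with earlier results of these data known. All 10 genes are named. Genes named from other lists were picked from called genes with a small adjusted p in a comparison (up to 4), cluster neighbours and genes of known role. Not every called gene is named. Some genes of the lists are not reported here, and the receptor list is given for disease only, with Scarb1 also for the drug. Alternatives were DESeq2 1.42.0, limma 3.58.1 (voom), other scalings and filters, a lane covariate, a replicate block and leaving out each mouse. Replicate mice differed by more than sampling noise in all 18 pairs within groups (chi-square per degree of freedom 35.3 to 746). Same-numbered mice did not deviate together, so numbers were not used as pairs.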

Additional observations from a re-analysis of the deposited data

Results flagged for a closer look

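In 5 of 30 sets of 4 mice (10 genes in 3 groups) 1 mouse lay far from the other 3 by Dixon's criterion, which chance alone meets in about 1 of 20 sets. In the STAM-vehicle group, mouse 3 had the highest Apoa4 level, 2638 CPM, with a gap of 0.907 of the whole range. The other 4 cases were all STAM-I-BET151 mouse 3. It was lowest for Apob at 1351, for Apoc1 at 706 and for Apom at 36.5 CPM, and highest for Apoc2 at 27.8. These sets are not independent, since they share this mouse. Its low hepatocyte marker sum and high sum of RNAs listed as nuclear stand beside its levels in the report, and their part in these values was not tested.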

How the results depend on the processing

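In STAM-vehicle against healthy mice, 0 of the 10 genes were called with all mice in edgeR, with DESeq2, with other scalings and filters, under the replicate block and under the lane covariate. The count was 5 with only the 2 groups compared (23.9% of all genes called) and 4 with limma-voom (34.7%). Leaving out 1 mouse gave 0 to 4. Without STAM-I-BET151 mouse 3 the count was 4 with DESeq2 (23.4%) and with RLE scaling (21.5%), 1 with library totals (30.5%) and 2 with the replicate block (17%). For the drug against STAM-vehicle it was 0 throughout, apart from 1 (Apom) by DESeq2 without mouse 3 (8.32%). For STAM-I-BET151 against healthy mice it was 1 with DESeq2 (18.0%) and with the replicate block (9.35%), 5 with voom (28.9%), and 0 with RLE, upper quartile scaling, library totals, no filter, at least 10 counts in every mouse, 2 groups and the lane. Leaving out 1 mouse gave 0 to 3. Without mouse 3 it was 5 with DESeq2 (21.3%), 0 with totals, 1 with RLE (20%) and 2 with the replicate block (16%).

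The signs of fold changes near 0 turned under several settings, and the cause was not tested. For disease (log2), upper quartile scaling gave Apoe 0.0407, at least 10 counts in every mouse gave Apoe 0.00838, and voom gave Apoe 0.000396. Library totals gave Apoc1 0.0754, Apoc2 0.0771 and Apoe 0.256, and without mouse 3 Apoc1 0.0754, Apoc2 0.0763 and Apoe 0.256. The lane covariate gave Apoa1 0.0729, Apoa5 0.13, Apob 0.18, Apoc1 0.15, Apoc3 0.0660 and Apoe 0.60. Leaving out 1 mouse gave Apoa4 -0.25 to 0.20 and Apoe -0.0460 to 0.00869.

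For the drug, the replicate block gave Apoa1 -0.0262 and Apom -0.0308, the lane Apoa1 -0.31 and Apom -0.23, and voom Apob 0.20, Apoc2 -0.48 and Apoe 0.15. Without mouse 3, DESeq2 gave Apoa2 0.0551, Apob 0.20, Apoc2 -0.48 and Apoe 0.26, RLE gave Apoa2 0.0529, Apob 0.20, Apoc2 -0.48 and Apoe 0.26, totals gave Apob 0.0901, Apoc2 -0.59 and Apoe 0.14, and the replicate block gave Apoa2 0.0408, Apob 0.27, Apoc2 -0.59 and Apoe 0.27. Leaving out 1 mouse gave Apoa1 -0.18 to 0.34, Apoa2 -0.43 to 0.0505, Apob -0.23 to 0.20, Apoc2 -0.48 to 0.48, Apoe -0.26 to 0.26 and Apom -0.0696 to 0.36.

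For STAM-I-BET151 against healthy mice, upper quartile scaling gave Apoe 0.0293, totals Apoe 0.21, the replicate block Apoc2 -0.0856, the lane Apoc2 -0.56 and Apoe 0.24, and voom Apoc2 -0.57 and Apoe 0.15. Without mouse 3, DESeq2 gave Apoc2 -0.67 and Apoe 0.22, totals Apoc2 -0.51 and Apoe 0.40, RLE Apoc2 -0.67 and Apoe 0.23, and the replicate block Apoc2 -0.75 and Apoe 0.23. Leaving out 1 mouse gave Apoc2 -0.68 to 0.30 and Apoe -0.28 to 0.22. Without mitochondrial genes the 10 genes took 3.88% of counts in healthy and 3.80% in STAM-vehicle mice.

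Of 270 fitted values in each comparison, 228, 236 and 225 kept direction and call for disease, the drug and both against healthy. Library totals put the median of all genes at 0.28, 0.13 and 0.46, against 0.01, 0.02 and 0.06. Same-numbered mice correlated at -0.0697, -0.0623 and -0.146 on average, so the replicate block pairs nothing known. These 4 mice a group leave wide intervals, and Apoc2 rests on 260 to 1548 counts.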
